A study of Mus musculus with 17 samples.

Results

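Binding of WT1 was described at the loci of 3 genes that encode inhibitors of the cell cycle, Cdkn1a, Cdkn1b and Cdkn1c. The members were all WT1 peaks whose summit, the point of highest signal, lay in a window around each gene on the mouse genome build mm9: chr17:29150000-29310000 for Cdkn1a, chr6:134800000-134950000 for Cdkn1b and chr7:150560000-150740000 for Cdkn1c. They numbered 88 of the 107761 peaks in the 5 deposited lists, with 28 in the Cdkn1a window, 16 in the Cdkn1b window and 44 in the Cdkn1c window. Peaks came from chromatin immunoprecipitation followed by sequencing (ChIP-seq), which finds genome stretches where fragments bound by a protein pile up above background. Isolated glomeruli of BALB/cJ mice were taken after vehicle (phosphate-buffered saline, PBS; 4 libraries) or after adriamycin (ADR, doxorubicin, a drug toxic to podocytes; 4 libraries). Podocytes were purified from mTmG-Nphs2cre mice, in which a recombinase under the promoter of the podocin gene marks these cells, after PBS (3 libraries), at day 9 after ADR (2 libraries) and at day 14 after ADR (2 libraries). All animals were 7 to 8 weeks old and labelled wildtype, and no time after injection is labelled for the glomeruli or the PBS podocytes. Each group had 1 peak list, so the spread between its libraries was not measured and no difference between groups below was tested. The podocyte lists had 23402 (PBS), 31949 (day 9) and 6694 (day 14) entries and the glomerular ones 29082 (PBS) and 16634 (ADR). They gave no expression values by which the labelled cell types could be checked.

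WT1 is a zinc-finger transcription factor that mature podocytes need. Cdkn1a (p21), Cdkn1b (p27) and Cdkn1c (p57) form the Cip/Kip family, proteins that bind complexes of cyclins and cyclin-dependent kinases and slow or stop the cell cycle. Podocytes are terminally differentiated epithelial cells on the filtering capillaries of the kidney. In them p27 and p57 are known markers of their resting state, while in many cells p21 is a known target of p53 after DNA damage. An annotation of mm9 was not used here, so the distance from a peak to a gene start is not given and a peak is assigned to a window, not to a gene. In the gene order of RefSeq (GRCm38.p6), the protein-coding neighbours are Srsf3, which encodes a splicing factor, and Rab44, of the Rab GTPase family, for Cdkn1a. They are Gpr19, an orphan receptor gene, and Apold1 for Cdkn1b, and Kcnq1, a potassium channel gene, and Slc22a18, a transporter gene, for Cdkn1c.

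The bases before the annotated starts of Cdkn1a and Cdkn1b are shown to give the promoter letters of these members, since sequences of the peaks themselves were not read. They are the 250 bases before each start in RefSeq (GRCm38.p6), which has 2 starts for Cdkn1a, at chr17:29090729-29090978 and chr17:29093519-29093768, and 1 for Cdkn1b, at chr6:134920151-134920400, all on the plus strand. These coordinates belong to another build than the peaks and cannot be set against them. The RefSeq promoter set used here has no entry for Cdkn1c, so no letters are given for it. Capitals mark matches, on either strand, to the WT1-like letters GNGTGGGNG and GCGGGGGCG, to the WTE motif of WT1, to the GC box GGGCGG and to a pair of p53 half-site cores (CATG, any 6 bases, CATG), which was added after the sequences were read.
Cdkn1a start 1: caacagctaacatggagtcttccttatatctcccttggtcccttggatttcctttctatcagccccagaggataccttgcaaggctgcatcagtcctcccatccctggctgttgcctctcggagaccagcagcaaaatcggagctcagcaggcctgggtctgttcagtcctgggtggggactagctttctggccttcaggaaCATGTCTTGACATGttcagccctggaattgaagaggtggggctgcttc
Cdkn1a start 2: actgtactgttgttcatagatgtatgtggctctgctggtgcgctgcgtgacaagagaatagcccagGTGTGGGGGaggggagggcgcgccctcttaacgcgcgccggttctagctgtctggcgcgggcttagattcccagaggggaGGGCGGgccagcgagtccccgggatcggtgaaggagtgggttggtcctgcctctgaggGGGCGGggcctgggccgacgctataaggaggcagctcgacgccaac
Cdkn1b start 1: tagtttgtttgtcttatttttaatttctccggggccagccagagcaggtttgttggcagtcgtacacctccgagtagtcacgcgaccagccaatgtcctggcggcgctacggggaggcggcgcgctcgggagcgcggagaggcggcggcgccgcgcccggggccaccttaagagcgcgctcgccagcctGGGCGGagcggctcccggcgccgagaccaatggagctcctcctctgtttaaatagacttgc
GNGTGGGNG occurred at the second Cdkn1a start, beginning 184 bases before it, and at neither of the other starts. These letters are found in 12.7% of the 32851 promoter stretches of this length in the table. GCGGGGGCG (2.57% of all stretches) and the WTE motif (0.0517%) occurred at none of the 3 starts. GGGCGG, found in 32.7% of stretches, occurred at 2 positions of the second Cdkn1a start and at 1 position of the Cdkn1b start. The p53 pair, found in 0.49% of stretches, occurred at the other Cdkn1a start, beginning 48 bases before it. A match is a stretch of letters and was not tested as a binding site.

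Peak counts differed between the lists by different amounts in the 3 windows. In podocytes the Cdkn1a window had 2 peaks after PBS, 9 at day 9 and 3 at day 14, and in glomeruli 7 after PBS and 7 after ADR. The Cdkn1b window had 3, 5 and 0 in podocytes and 4 and 4 in glomeruli, and the Cdkn1c window 10, 15 and 1 in podocytes and 11 and 7 in glomeruli. In the deposited lists the glomerular counts after ADR and PBS were thus equal at Cdkn1a and Cdkn1b, and the highest podocyte count was that of day 9, the longest list. With each list limited to its 6694 peaks of smallest p, the length of the shortest, the equalities ended and day 9 stayed the highest of the podocyte lists at Cdkn1c alone. Podocytes then had 1 (PBS), 0 (day 9) and 3 (day 14) peaks at Cdkn1a, none at Cdkn1b and 2, 4 and 1 at Cdkn1c. Glomeruli had 2 (PBS) and 4 (ADR) at Cdkn1a and 0 and 2 at Cdkn1b, and with a −log10 q of at least 10 they had 3 and 5 at Cdkn1a. Each window was set against all windows of its length laid end to end over the genome, where they held a peak in at least 1 list (9046 windows for Cdkn1a, 9429 for Cdkn1b and 8346 for Cdkn1c). Their median was 0 peaks in the day 14 list, 1 in the ADR glomerular list and 2 in each of the other lists. At least as many glomerular peaks as at Cdkn1a were found in 13.8% (PBS) and 4.75% (ADR) of windows. For podocyte peaks it was 53.6% (PBS), 9.61% (day 9) and 7.76% (day 14).

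**Figure D1:**
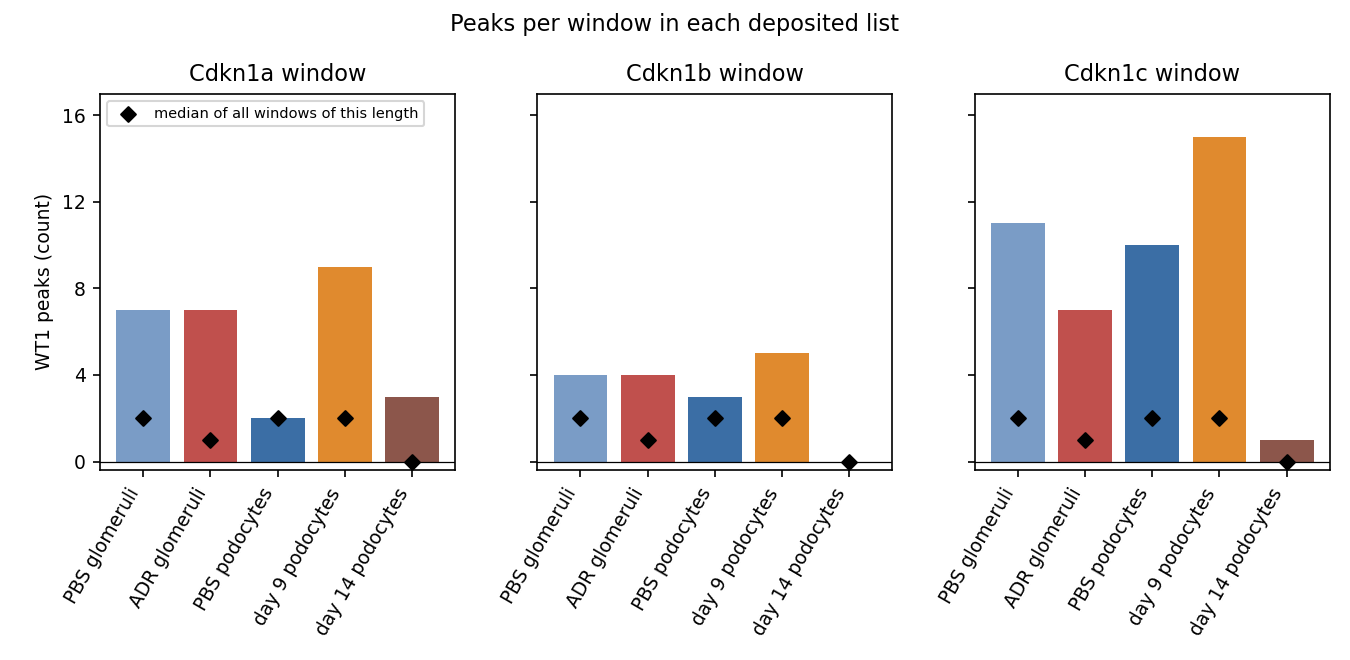
Number of WT1 peaks (y axis, count) in the Cdkn1a, Cdkn1b and Cdkn1c windows for each of the 5 lists (x axis). Bars are the deposited peaks of 1 list each, without error bars because there is 1 list per group, and diamonds are the median of all genome windows of the same length. The Cdkn1a bar is at 2 in PBS podocytes and at 9 at day 9.

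**Figure D2:**
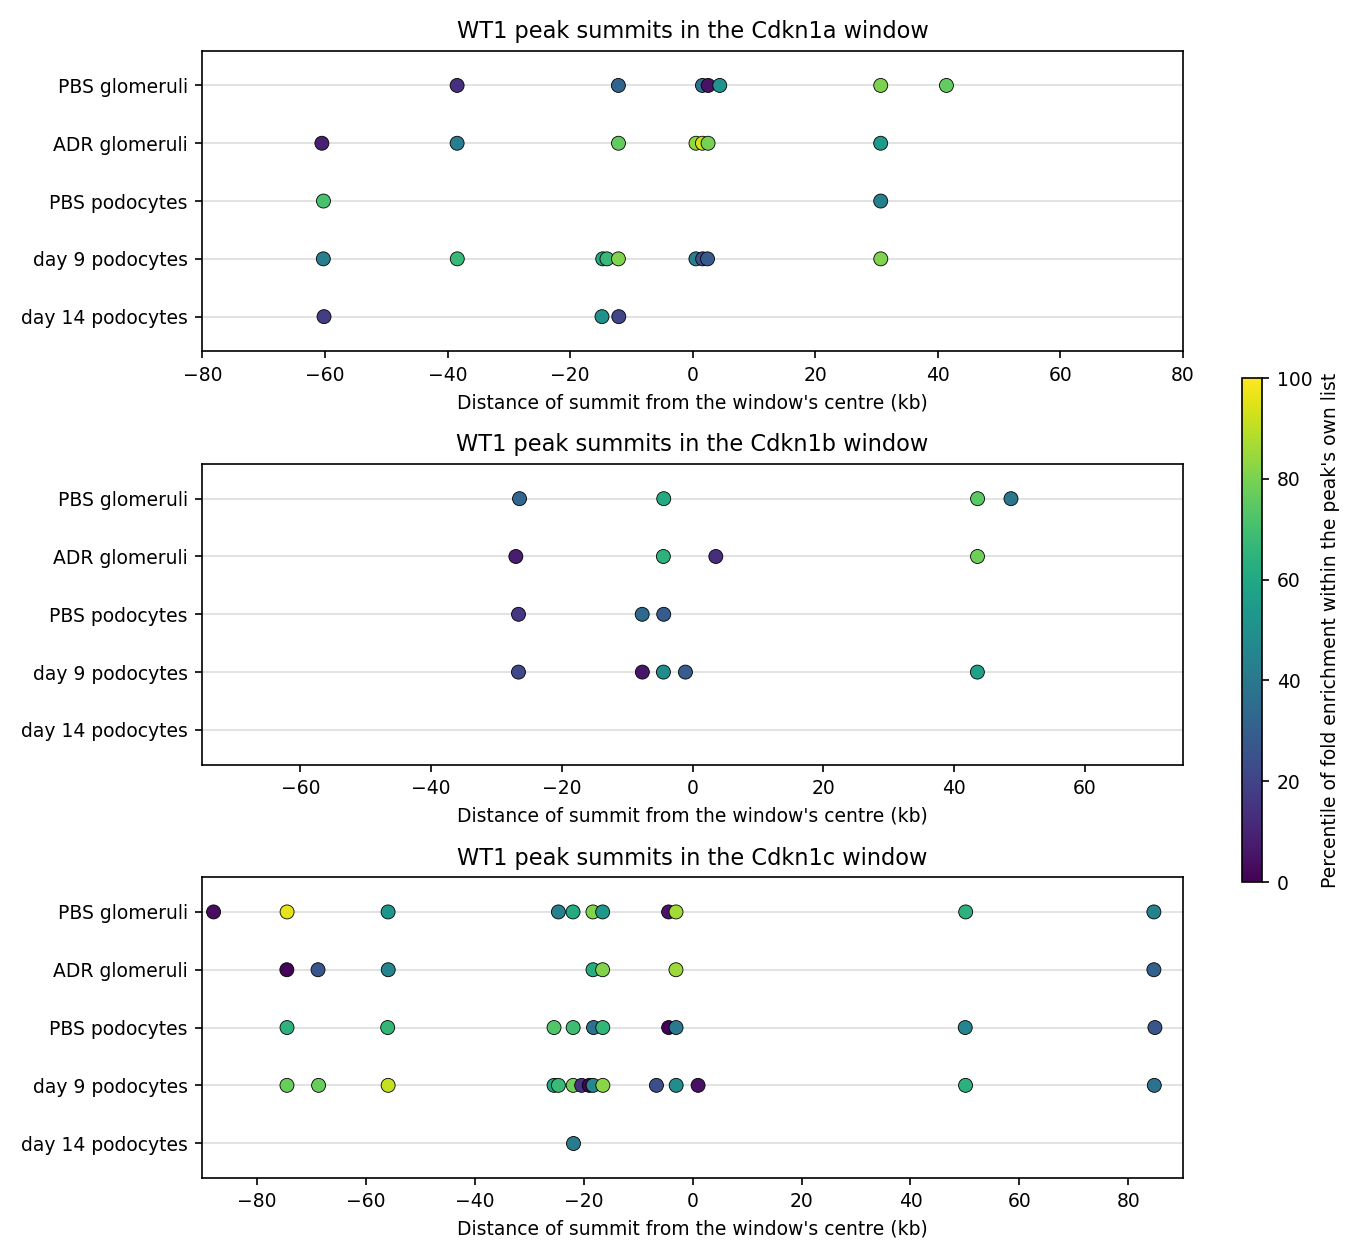
Position of each peak summit in the 3 windows (x axis, kb from the window's centre) in the 5 lists (y axis). Colour is the percentile of the peak's fold enrichment within its own list. Between the 2 summits of PBS podocytes in the Cdkn1a window the day 9 list has 7.

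Overlapping peaks of the 5 lists were merged into regions, 35 in all, which are numbered by position in each window (11 for Cdkn1a, 7 for Cdkn1b, 17 for Cdkn1c). None of the 35 had a peak in all 5 lists, against 11.2% of the 41770 merged regions of the genome. The day 14 list, the shortest, had a peak at 4 regions, each of which lacked a peak in at least 1 other list: PBS glomeruli at Cdkn1a-1, PBS podocytes at Cdkn1a-5, ADR glomeruli at Cdkn1c-7, and all but day 9 at Cdkn1a-3. With day 14 left aside, 9 of the 35 regions (25.7%) had a peak in each of the other 4 lists, close to the 24.9% of all regions. These 9 were 1 of 11 regions at Cdkn1a, 2 of 7 at Cdkn1b and 6 of 17 at Cdkn1c. Peaks in ADR lists alone were found at 10 regions (28.6%), against 21.7% of all regions, and peaks in PBS lists alone at 5 (14.3%), against 16.9%. In 11 regions (31.4%) only 1 list had a peak, against 34.5% of all regions. That list was day 9 podocytes at 6 regions (17.1%, against 16.1%), PBS glomeruli at 4 (11.4%, against 11.0%) and ADR glomeruli at 1 (2.86%, against 3.37%). A day 9 peak without a PBS podocyte peak was found at 15 regions (42.9%), against 27.4%.

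**Figure D3:**
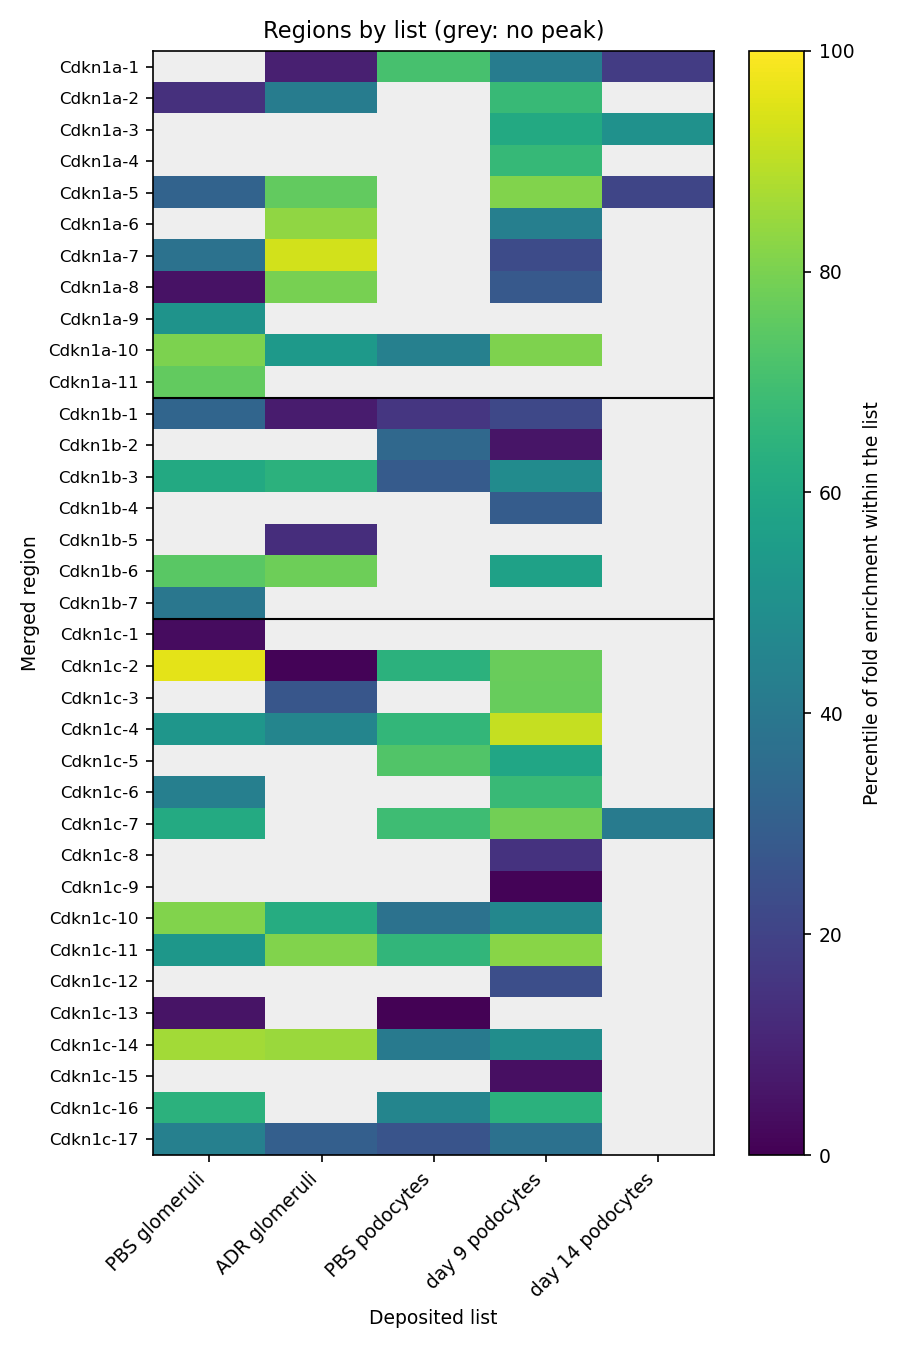
The 35 merged regions (y axis, in order of position within each window) by deposited list (x axis). Colour is the percentile of fold enrichment within the list, and grey is no peak. The column of day 14 podocytes is filled at 4 regions, and the Cdkn1a rows of PBS podocytes at 2.

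How WT1 binding stood early after injury was addressed by setting the day 9 list against that of PBS podocytes, and of the 3 windows that of Cdkn1a had the largest difference in count. The PBS podocyte list had a peak in Cdkn1a-1 (chr17:29169252-29170477) and in Cdkn1a-10 (chr17:29260402-29260932), and none in between. The day 9 list had peaks in both of these and in 7 further regions, Cdkn1a-2 to Cdkn1a-8. So 7 of the 9 day 9 peaks (77.8%, exact 95% binomial interval 40.0 to 97.2, which covers the counting of peaks only) had no overlapping PBS podocyte peak, against 36.0% of all day 9 peaks. At Cdkn1b it was 2 of 5 and at Cdkn1c 6 of 15, both 40.0%. Both are near the share of the whole list. The day 9 count exceeded the PBS podocyte count by 7 or more in 1.41% of windows as long as that of Cdkn1a. Among the 869 windows with at least 9 day 9 peaks, 11 (1.27%) had at most 2 PBS podocyte peaks, and their median was 8. The 9 day 9 peaks stood at ranks 6851 to 15538 of 31949 by caller p-value. With each list limited to its 6694 peaks of smallest p, the window therefore held 0 day 9 peaks. It then held 1 PBS podocyte peak, which turns the direction. This limit is the length of the day 14 list. With the day 9 list limited to the length of the PBS podocyte list, 23402 peaks, the counts stayed at 9 and 2. With a −log10 q of at least 10 they were 9 and 1.

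**Figure D4:**
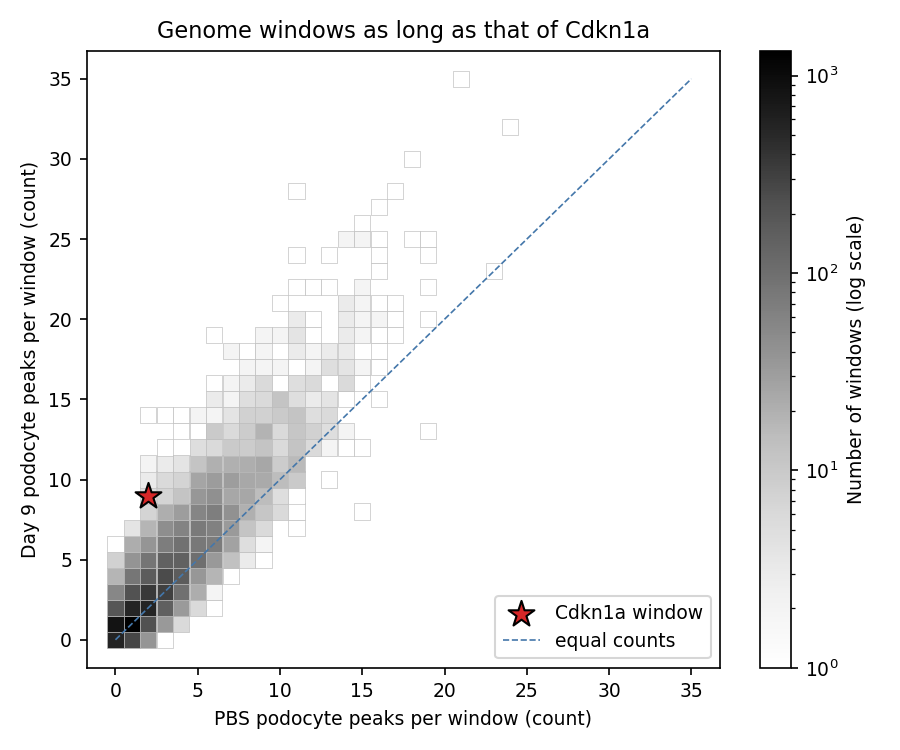
Peak counts of PBS podocytes (x axis) and day 9 podocytes (y axis) in genome windows as long as that of Cdkn1a that hold a peak in at least 1 list. Each square is a pair of counts, shaded by the number of windows on a log scale, the dashed line marks equal counts and the star marks the Cdkn1a window with 2 and 9 peaks. The star lies near the upper edge of the windows with 2 PBS podocyte peaks.

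The middle of the Cdkn1a window held 3 neighbouring regions within chr17:29230389-29232676, Cdkn1a-6, Cdkn1a-7 and Cdkn1a-8, that had peaks in ADR glomeruli and day 9 podocytes and none in PBS or day 14 podocytes. Fold enrichment, the authors' ratio of the signal at a summit to background, is given below with its percentile, the share of the same list with a lower value. Ranks in lists of different length show no change by themselves, so these values stand side by side. Cdkn1a-6 (chr17:29230389-29230878) had 12.6-fold enrichment in ADR glomeruli (percentile 83.4) and 6.20-fold at day 9 (43.1), and no peak in either PBS list. It was 1 of 2 regions in the 3 windows, with Cdkn1c-3, that had peaks in ADR glomeruli and in injured podocytes and none in a PBS list, a pattern of 1.96% of all merged regions. Cdkn1a-7 (chr17:29231345-29231913) held the strongest peak of the window in ADR glomeruli, 17.8-fold (percentile 93.0). In PBS glomeruli Cdkn1a-7 was 6.35-fold (37.6) and at day 9 it was 4.75-fold (23.0). Cdkn1a-8 (chr17:29232096-29232676) was 4.03-fold in PBS glomeruli (4.96), 11.4-fold in ADR glomeruli (79.5) and 5.03-fold at day 9 (27.8). All 3 regions thus stood high within the ADR glomerular list, and Cdkn1a-7 and Cdkn1a-8 stood low or in the middle of the PBS glomerular list. At day 9 the caller p-value placed the same peaks of Cdkn1a-6, Cdkn1a-7 and Cdkn1a-8 higher than their fold did, at percentiles 56.7, 70.6 and 58.6.

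A second group of regions in the Cdkn1a window, Cdkn1a-3 to Cdkn1a-5 (chr17:29215035-29218163), together had 3 peaks at day 9, 2 at day 14, 1 in each glomerular list and none in PBS podocytes. Cdkn1a-3 (chr17:29215035-29215495) was seen after injury of purified podocytes alone, at 8.24-fold on day 9 (percentile 60.8) and 6.35-fold on day 14 (50.5). Cdkn1a-4 (chr17:29215730-29216247) had a peak at day 9 alone, 9.54-fold (67.2). Cdkn1a-5 (chr17:29217608-29218163) held the strongest day 9 peak of the window, 14.1-fold (80.9). It was 5.91-fold in PBS glomeruli (31.8), 10.6-fold in ADR glomeruli (75.9) and 4.66-fold at day 14 (20.9). Cdkn1a-5 was thus found in 4 lists, PBS podocytes being the one without it.

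The remaining Cdkn1a regions showed other patterns. Cdkn1a-1 had its highest percentile in PBS podocytes, 9.12-fold (70.9), and was 6.04-fold at day 9 (41.9), 4.45-fold at day 14 (17.6) and 4.69-fold in ADR glomeruli (8.98). It had no peak in PBS glomeruli. Cdkn1a-10 had a peak in every list but day 14, at 13.0-fold in PBS glomeruli (80.3), 7.57-fold in ADR glomeruli (54.0), 5.76-fold in PBS podocytes (43.7) and 14.02-fold at day 9 (80.7). Cdkn1a-2 (chr17:29190693-29191748) was seen in both glomerular lists and at day 9. Cdkn1a-9 (chr17:29234208-29234589, 7.63-fold) and Cdkn1a-11 (chr17:29271241-29271630, 11.8-fold) were seen in PBS glomeruli alone.

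In the Cdkn1b window the lists other than day 14 had between 3 and 5 peaks. The day 9 count exceeded that of PBS podocytes by 2, a difference that 24.5% of windows of this length reached, and 23.0% of windows with at least 5 day 9 peaks had at most 3 PBS podocyte peaks. A difference as large as that to the 0 peaks of day 14 was found in 25.5% of windows against PBS podocytes and in 19.0% against day 9. Cdkn1b-3 (chr6:134870084-134870847) had peaks in both glomerular lists, PBS podocytes and day 9 podocytes, at 8.80-fold (percentile 60.7), 8.69-fold (64.3), 4.84-fold (28.7) and 6.60-fold (48.4). Cdkn1b-1 (chr6:134847891-134848714) had peaks in the same 4 lists and was weaker in each, between 3.99-fold in PBS podocytes and 5.97-fold in PBS glomeruli. Its summits were also the most spread of any region here, over 561 bp. Cdkn1b-6 (chr6:134918427-134918767) held the strongest peak of the window by fold in 3 lists, with 11.4-fold in PBS glomeruli (74.3), 11.1-fold in ADR glomeruli (78.0) and 7.75-fold at day 9 (57.4), and it was absent from PBS podocytes. By caller p-value the strongest was Cdkn1b-3 in PBS glomeruli (percentile 70.4), PBS podocytes (67.4) and day 9 podocytes (76.5), and Cdkn1b-6 in ADR glomeruli (75.6). The strongest PBS podocyte peak by fold lay in Cdkn1b-2 (chr6:134867138-134867461), 5.17-fold (33.8), a region that otherwise had a peak at day 9 alone. Of the other 3 regions, Cdkn1b-4 (chr6:134873781-134874073, 5.15-fold) was seen at day 9 alone, Cdkn1b-5 (chr6:134878451-134878741, 4.95-fold) in ADR glomeruli alone and Cdkn1b-7 (chr6:134923630-134923847, 6.51-fold) in PBS glomeruli alone. The highest percentile of fold enrichment in this window was the 78.0 of Cdkn1b-6 in ADR glomeruli.

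The Cdkn1c window held the most regions, and 7 of them (Cdkn1c-5 to Cdkn1c-11) lay within chr7:150624329-150633823. The day 9 list had a peak in all 7 of these, PBS glomeruli and PBS podocytes in 4 each, ADR glomeruli in 2 and day 14 in 1. At least 15 day 9 peaks were found in 2.68% of windows of this length and at least 10 PBS podocyte peaks in 4.04%. At least 11 PBS glomerular peaks were found in 5.75%. The day 9 count exceeded the PBS podocyte count by 5 or more in 4.98% of windows, and 30.8% of windows with at least 15 day 9 peaks had at most 10 PBS podocyte peaks. The ADR glomerular count was lower than the PBS count by 4 or more in 13.99% of windows (1168 of 8346). Of the 10 PBS podocyte peaks, 9 had a day 9 peak, against 87.0% of the whole list. The exception was Cdkn1c-13 (chr7:150645389-150645743), at 2.43-fold one of the weakest PBS podocyte peaks (percentile 0.773), which had its only other peak in PBS glomeruli.

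By fold, the strongest Cdkn1c peaks lay in different regions in different lists, while by caller p-value Cdkn1c-2 was the strongest in both PBS lists, at percentile 93.2 in glomeruli and 73.2 in podocytes. In PBS glomeruli the strongest was Cdkn1c-2 (chr7:150575232-150575784), 21.9-fold, at rank 1245 of 29082. In ADR glomeruli the same region was among the weakest peaks of the list, 3.68-fold, at rank 16451 of 16634. It was 7.92-fold in PBS podocytes (percentile 64.1) and 12.4-fold at day 9 (77.2). Cdkn1c-2 thus stood at opposite ends of the 2 glomerular lists by fold. Its ADR glomerular peak was at percentile 11.7 by caller p-value. At day 9 the strongest was Cdkn1c-4 (chr7:150593572-150594418), 22.9-fold (91.1), which was 8.24-fold in PBS podocytes (66.0), 7.74-fold in PBS glomeruli (52.5) and 6.91-fold in ADR glomeruli (45.4). In ADR glomeruli it was Cdkn1c-14 (chr7:150646580-150647200), 13.2-fold (85.1), with 15.3-fold in PBS glomeruli (86.3), 5.58-fold in PBS podocytes (40.8) and 6.73-fold at day 9 (49.0). The strongest PBS podocyte peak lay in Cdkn1c-5 (chr7:150624329-150624770), 9.54-fold (72.8), with 8.02-fold at day 9 (59.2) and no glomerular peak.

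Several other Cdkn1c regions had peaks in 4 lists. Cdkn1c-10 (chr7:150631509-150632186) ranged from 5.43-fold in PBS podocytes to 13.2-fold in PBS glomeruli, and Cdkn1c-11 (chr7:150633136-150633823) from 7.80-fold in PBS glomeruli to 14.9-fold at day 9. Cdkn1c-17 (chr7:150734547-150735144) ranged from 4.70-fold in PBS podocytes to 6.88-fold in PBS glomeruli. Cdkn1c-7 (chr7:150627825-150628750) lacked a peak in ADR glomeruli and was 8.89-fold in PBS glomeruli (61.3), 8.78-fold in PBS podocytes (68.8), 13.2-fold at day 9 (78.9) and 5.72-fold at day 14 (41.6). Regions with peaks in ADR lists alone were Cdkn1c-3 (chr7:150581002-150581541), with 5.74-fold in ADR glomeruli (26.7) and 12.3-fold at day 9 (76.8), and 4 regions of day 9 alone. Those 4, Cdkn1c-8, Cdkn1c-9, Cdkn1c-12 and Cdkn1c-15, were weak by fold, between 2.63-fold and 4.86-fold, none above percentile 24.0. By caller p-value they stood, in this order, at percentiles 26.6, 8.85, 41.0 and 15.8. Cdkn1c-1 (chr7:150561961-150562191, 3.78-fold) was seen in PBS glomeruli alone. Cdkn1c-16 (chr7:150699762-150700367) had peaks in PBS glomeruli (9.36-fold), PBS podocytes (5.96-fold) and day 9 podocytes (8.72-fold).

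In glomeruli, the list after ADR, at a time the labels do not give, was set against that after PBS. Over the 3 windows, 14 of 22 PBS glomerular peaks (63.6%, exact 95% interval 40.7 to 82.8) had an ADR peak, against 46.5% of the whole list. In the other direction 14 of 18 ADR peaks (77.8%, 52.4 to 93.6) had a PBS peak, against 82.6%. Both intervals, which cover the counting of peaks only, hold the share of the whole list. The 4 ADR glomerular peaks without a PBS glomerular peak lay in Cdkn1a-1, Cdkn1a-6, Cdkn1b-5 and Cdkn1c-3. Of the 7 day 9 peaks of the Cdkn1a window that PBS podocytes lacked, 5 overlapped an ADR glomerular peak, against 17.4% of all such day 9 peaks. It was 1 of 2 at Cdkn1b, 1 of 6 at Cdkn1c and 7 of 15 over the 3 windows. The shares were not matched for enrichment. By day 9 fold, the 7 peaks at Cdkn1a had a median percentile of 60.8, against 33.6 for all such day 9 peaks. At Cdkn1a 4 of the 5 also overlapped a PBS glomerular peak, as did 1176 of the 2006 such peaks of the whole list. In the uninjured groups, 1 of the 7 PBS glomerular peaks at Cdkn1a had a PBS podocyte peak, against 9 of 11 at Cdkn1c and 66.4% of the whole list, with strain and tissue preparation differing together.

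The day 14 list addressed binding later after injury. The 4 day 14 peaks of the 3 windows lay in Cdkn1a-1, Cdkn1a-3, Cdkn1a-5 and Cdkn1c-7, and each overlapped a day 9 peak, as did 99.7% of the list. Of the 15 PBS podocyte peaks 2 had a day 14 peak (13.3%, exact 95% interval 1.66 to 40.5), against 27.0%, and of the 29 day 9 peaks 4 did (13.8%, 3.89 to 31.7), against 20.5%. At Cdkn1a the day 14 list, the shortest, nonetheless had more peaks than the PBS podocyte list, 3 against 2, which was so in 1.14% of windows of that length. The day 14 peaks of Cdkn1a-3 and Cdkn1a-5 had no PBS podocyte peak, a feature of 3.87% of day 14 peaks (96.1% had one) and of 0.615% of merged regions. By caller p-value these 2 peaks stood at percentiles 39.8 and 14.5 of the day 14 list. Of the 9046 windows, 8 (0.0884%) held 2 or more such peaks. The median of these windows was 0 day 14 peaks, so most could not hold 2, and this count of windows was not planned.

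At Cdkn1c the day 14 list had 1 peak against 10 in PBS podocytes and 15 at day 9, and against 2 and 4 once these lists were limited to its length. A difference as large as that between 10 PBS podocyte peaks and 1 day 14 peak was found in 1.98% of windows. One as large as that between 15 day 9 peaks and 1 was found in 1.33%. Only windows rich in peaks can reach such differences. At least 10 PBS podocyte peaks were held by 4.04% of windows of this length, and at least 15 day 9 peaks by 2.68%. The strongest day 9 peak of all 3 windows, in Cdkn1c-4, had no day 14 peak, although 93.8% of the 2832 day 9 peaks at least as enriched had one. By caller p-value it was at rank 1762, and 98.4% of the 1762 peaks at least as strong by that measure had a day 14 peak. Among day 9 peaks of percentile 75 to 90, 50.6% had a day 14 peak, and 2 of 6 members did, Cdkn1a-5 and Cdkn1c-7. In the bins below, the members with a day 14 peak were 1 of 7 (percentile 50 to 75), 1 of 8 (25 to 50) and 0 of 7 (0 to 25), against 13.3%, 1.78% and 0.288% of all day 9 peaks. At Cdkn1a the counts were 9 at day 9 and 3 at day 14, a difference that 14.2% of windows reached.

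**Figure D5:**
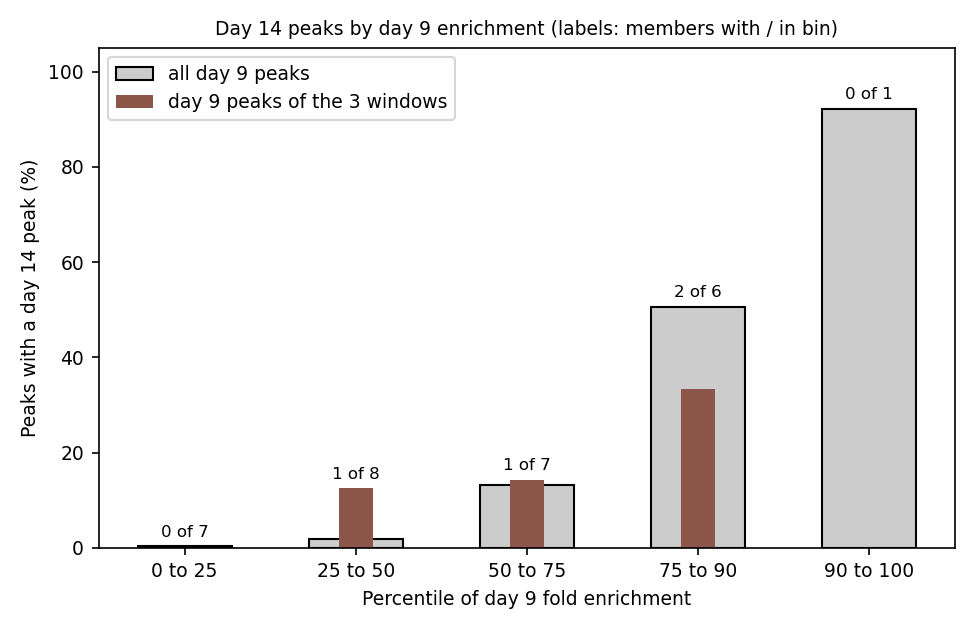
Share of day 9 podocyte peaks that overlap a day 14 peak (y axis, percent) by percentile of day 9 fold enrichment (x axis). Grey bars are all day 9 peaks and brown bars those of the 3 windows, with the number of members that have a day 14 peak and the number in the bin above each pair. The single member in the top bin, in Cdkn1c-4, has none where 92.1% of all peaks do.

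Summits of one region in different lists were compared by position. The distance between the outermost summits had a median of 10 bp over the 7 regions seen in 2 lists, 33 bp over the 5 seen in 3 and 62.5 bp over the 12 seen in 4. Over all merged regions the medians were 33, 52 and 65 bp. The summits of Cdkn1a-6 in ADR glomeruli and day 9 podocytes were 10 bp apart, those of Cdkn1a-10 spanned 18 bp over 4 lists, and those of Cdkn1c-6 were 1 bp apart. The widest spans were 561 bp at Cdkn1b-1, 349 bp at Cdkn1a-1, 191 bp at Cdkn1c-17 and 121 bp at Cdkn1a-3. Fold enrichment of the members had a median percentile of 43.7 (PBS), 49.0 (day 9) and 31.2 (day 14) in podocytes and of 51.9 (PBS) and 58.0 (ADR) in glomeruli. At day 14, 1 of the 4 members was at or above the median of its list.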

How the data were processed

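WT1 ChIP-seq was made from 15 immunoprecipitation libraries in 5 groups, with 2 input libraries from glomeruli. The submitters' processing notes name the build mm9, Bowtie 0.12.7 and MACS2. The pooling of libraries, the control and the cutoff are each not given in the sources used here. Glomeruli of 2 kidneys were used per immunoprecipitation, per the labels' protocols. The authors deposited 1 narrowPeak list per group, with a fold enrichment (ratio over background), −log10 p, −log10 q and an integer score for each peak, and the score was not used. Depth in reads is not given by the lists. A low or absent peak can therefore follow less binding, fewer reads or a weaker immunoprecipitation, which cannot be told apart here.

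Members were peaks with a summit in the 3 windows. Peaks matched when they overlapped by at least 1 bp, and regions were unions of overlapping peaks. Shares carry exact (Clopper-Pearson) 95% binomial intervals. These cover the counting of peaks only and treat neighbouring peaks of a window as independent. Regions were named where they held the strongest peak of a list, had peaks in ADR or PBS lists alone, or in all 5 lists (there were none). Other regions were named after their values were seen. The members, windows and lists of letters and genes were chosen with earlier results of these data known. Overlap and merging code was tested on simulated data. The code ran in Python 3.11.15 (scipy 1.17.1, pandas 2.3.3, numpy 2.4.6), with figures by matplotlib 3.10.9.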

Additional observations from a re-analysis of the deposited data

Results flagged for a closer look

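The Cdkn1c window is listed because its peak count moved in opposite directions after ADR in the 2 preparations. The difference of ADR minus PBS was -4 peaks in glomeruli (7 against 11) and 5 peaks in podocytes at day 9 (15 against 10). The whole lists differed in the same directions. They had 29082 (PBS) and 16634 (ADR) peaks in glomeruli, and 23402 (PBS) and 31949 (day 9) in podocytes. The median difference over windows of this length was -1 in glomeruli and 1 in podocytes. With 1 list per group the difference between the preparations was not tested. Differences of at most -4 peaks between the glomerular lists were found in 13.99% of windows of this length, and differences of at least 5 between the podocyte lists in 4.98%.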

How the results depend on the processing

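No paired analysis was possible because the libraries of a group share 1 deposited list, and leaving out a library could not be done either. With a −log10 q of at least 10, the Cdkn1a count was 3 in PBS glomeruli, 5 in ADR glomeruli and 1 in PBS podocytes, the Cdkn1b count 2 in each glomerular list and the Cdkn1c count 3 in ADR glomeruli. The Cdkn1b regions then numbered 4, and 100% of the 12 PBS podocyte peaks left had a day 9 peak. Windows narrowed by 20 kb at both ends left 1 PBS podocyte peak at Cdkn1a. With each list limited to its 6694 peaks of smallest p, the counts were 2 (PBS) and 4 (ADR) in glomeruli and 1 (PBS) and 0 (day 9) in podocytes at Cdkn1a, in the same order 0, 2, 0 and 0 at Cdkn1b and 3, 2, 2 and 4 at Cdkn1c, and the regions 2 at Cdkn1b and 6 at Cdkn1c. With both lists of a comparison limited to the shorter, 50% of ADR glomerular peaks had a PBS glomerular peak and 25% of the 4 day 14 peaks a day 9 peak. Matches by 50% overlap or by summits within 200 bp moved none of the 10 shares beyond their intervals. Ranked by caller p-value in place of fold, the strongest peaks of the windows stood between percentiles 48.4 and 94.5. Settings added after the data were seen follow. Regions in every list numbered 1, 2 and 6 at Cdkn1a, Cdkn1b and Cdkn1c without the day 14 list. Of windows with at least as many day 9 peaks as Cdkn1a, 1.27% (11 of 869) had at most as many PBS podocyte peaks. The share became 0.244% (1 of 410) with the stricter q and 0.331% (3 of 905) in the narrowed window. It was 0.214% (1 of 467) with both podocyte lists limited to the shorter and 0.667% (6 of 899) with the windows shifted. The day 9 and PBS podocyte counts at Cdkn1a were 9 and 1 with the stricter q and 8 and 1 in the narrowed window. In the other settings they stayed at 9 and 2. Fewer peaks enter under the stricter q and the limited lists by construction, and the cause of the other differences was not tested.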

Other observations

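The bounds of the windows lay at different distances from the nearest peaks. The nearest peaks outside lay 5.24 kb below the Cdkn1a window (day 9 podocytes, 2.36-fold) and 6.28 kb below the Cdkn1c window (PBS podocytes, 10.7-fold), while the nearest inside lay at 19.5 kb and 2.04 kb from the same bounds. At the other 4 bounds the nearest peak outside was 11.6 kb to 164 kb away.

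Of 17 other cell cycle genes (4 further inhibitors of cyclin-dependent kinases, kinases, cyclins, E2f1, Rb1, Trp53 and Mdm2), 12 had a promoter in the RefSeq table. GNGTGGGNG occurred before a start of 4 of them, Cdk4, Cdkn2a, Cdkn2b and Cdkn2c, the last 3 being inhibitors of the INK4 family. GGGCGG occurred at 9 of the 12, and neither GCGGGGGCG nor the WTE motif at any. These are counts of genes with a match at any of their starts, so the shares of single promoter stretches given above are not their background. Peaks near these genes were not analysed here for want of an mm9 annotation.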
